A study of Mus musculus with 2 samples.

Results

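The Mir290-Mir295 cluster is a run of 7 miRNA genes on mouse chromosome 7 that is best known from embryonic stem cells and the preimplantation embryo. Its members are Mir290a, Mir291a, Mir292a, Mir291b, Mir293, Mir294 and Mir295, in that order along the plus strand. They were found by Ensembl identifier in GENCODE M21 (GRCm38, the build called mm10), where Mir292a is listed as Mir292, and the rule goes by gene name, not by a measured value, though the cluster was picked with earlier results of these data known. All 7 members have a row in both deposited tables, which hold 1973 miRNA genes in all.

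The libraries are small-RNA sequencing libraries, limited per the labels to RNAs under 30 bases, from limb tissue of B6NCrl mouse embryos of both sexes at embryonic day 10.5, when the limb is a bud of mesenchyme under an ectodermal cover. There is 1 group with 2 biological replicates. Replicate 1 is a pool of limbs from 69 embryos and replicate 2 a pool from 51, and no treatment or mutant allele is given for either. With 1 group there is no contrast between conditions, so the data answer how much of the cluster's RNA was left at this stage, how its members differed, and how far the libraries differed in them.

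In mouse embryonic stem cells the cluster is transcribed as a single long primary RNA, from which the hairpins are cut and then trimmed to short mature miRNAs. A mature miRNA finds its target mRNAs mainly through its seed, bases 2 to 8 from its 5′ end. Members that share a seed with the Mir302 cluster help embryonic stem cells pass quickly through the cell cycle, in part by repressing the cell cycle inhibitor Cdkn1a, and both clusters are shut down as cells differentiate. The Mir290-Mir295 cluster is also known to be active in trophoblast and in primordial germ cells.

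The hairpins span 2216 bases of chromosome 7 (GRCm38), at chr7:3218626-3220841. Mir290a (ENSMUSG00000077815) lies at chr7:3218626-3218708, Mir291a (ENSMUSG00000078008) at chr7:3218919-3219000 and Mir292a (ENSMUSG00000078041) at chr7:3219189-3219270. Mir291b (ENSMUSG00000078032) follows at chr7:3219482-3219560. After a wider gap come Mir293 (ENSMUSG00000078035) at chr7:3220343-3220422, Mir294 (ENSMUSG00000077903) at chr7:3220641-3220724 and Mir295 (ENSMUSG00000077886) at chr7:3220773-3220841. RefSeq places 6 of the 7 hairpins, all but Mir290a, within the span of the long noncoding RNA gene D7Ertd143e on the plus strand. GENCODE places the same 6 over exons of the inflammation regulator gene Nlrp12 on the minus strand, outside its coding sequence. Of the other annotated genes within 10 kb, Mir290b and Mir292b, on the minus strand at the Mir290a and Mir292a hairpins, are not analysed here.

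RefSeq (GRCm38.p6) gave 13 mature sequences for the 7 members. Arms that are nearly identical matter because the tables count no read that matches several loci. Shown are the members' available 3′ arms and those 5′ arms that share a seed with another member. Each is written 5′ to 3′ with its seed in capitals. No sequence was available for miR-292a-3p and miR-302a-3p, which are named only. Both are missing from the comparisons of seeds and shared runs, so sharing with them is not known here. The 3′ arms with the seed AAGUGCU come first, followed by the same arms of Mir302b and Mir302d, which carry that seed too.
miR-291a-3p: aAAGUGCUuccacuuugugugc
miR-294-3p: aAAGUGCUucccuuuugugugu
miR-295-3p: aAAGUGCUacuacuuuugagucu
miR-302b-3p: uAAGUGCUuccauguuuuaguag
miR-302d-3p: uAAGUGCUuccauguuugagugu
The 3′ arms of Mir290a, Mir291b and Mir293 have other seeds. Bases 1 to 8 of miR-293-3p are the same as bases 3 to 10 of miR-290a-3p, so its seed is shifted along a shared stretch.
miR-290a-3p: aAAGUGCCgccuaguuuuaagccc
miR-291b-3p: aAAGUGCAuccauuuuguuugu
miR-293-3p: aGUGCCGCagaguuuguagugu
On the 5′ side Mir290a, Mir292a and Mir293 share the seed CUCAAAC, and Mir291a and Mir291b share the seed AUCAAAG.
miR-290a-5p: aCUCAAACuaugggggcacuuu
miR-292a-5p: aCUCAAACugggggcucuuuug
miR-293-5p: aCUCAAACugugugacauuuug
miR-291a-5p: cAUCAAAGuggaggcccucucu
miR-291b-5p: gAUCAAAGuggaggcccucucc

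Each of the 13 mature sequences occurs at 1 locus of the RefSeq table. The closest pair is miR-291a-5p and miR-291b-5p, which differ at their ends alone (C1G and U22C, counted from the 5′ end, with the base of miR-291a-5p first) and share bases 2 to 21. A read that lacks both end bases fits both hairpins and, as a multimapping read, is counted at neither. The counts of Mir291a and Mir291b may therefore be too low, and the split between them is uncertain. Between the other pairs of arms from the same side of the hairpin, the longest shared run is 11 bases, in miR-291a-3p and miR-294-3p. This leaves out miR-292a-3p, which had no sequence here.

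Sense counts in miRNA genes came to 3581672 in replicate 1 and 3576482 in replicate 2. Levels are in CPM, sense counts per 1000000 of these totals. Where a gene has 0 counts, the limit is taken as 3 counts, which equals 0.838 CPM in replicate 1 and 0.839 CPM in replicate 2. Intervals are exact 95% binomial intervals and, like these limits, cover counting error only, since reads copied by PCR are not independent molecules. The 6 listed limb genes (Mir10a, Mir10b, Mir196b, Mir615, Mir214 and Mir199b) were detected in both libraries. They summed to 203142 CPM in replicate 1 and to 190286 CPM in replicate 2. They were listed with earlier results of these data known, and no other tissue was measured. Their levels are therefore no test of the tissue label. With 2 libraries the smallest two-sided p that an exact sign-flip test can give is 0.5, so levels are given without tests.

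The cluster was present at a low level in limb. Its 7 members summed to 1104 counts in replicate 1 and 353 counts in replicate 2, which is 308 CPM (290 to 327) and 98.7 CPM (88.7 to 110). The mean was 203 ± 148 CPM (SD, n = 2), and the cluster held 0.0308% of the sense counts in replicate 1 and 0.00987% in replicate 2. In bulk tissue, fewer cells that hold an RNA and less of it per cell cannot be told apart. Of the 7 members, 6 had at least 10 counts in both libraries, the rule for a detected gene, against 348 of 1973 genes (17.6%) in the tables as a whole. At a minimum of 20 counts 3 members remained, Mir293, Mir294 and Mir292a. Most rows of the tables are genes with few or no counts. The detected members were nevertheless low among detected genes, with a median of 24.4 CPM against 136 CPM for all 348.

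Mir293, whose mature 3′ arm has the offset seed GUGCCGC, was the most abundant member in both libraries. It had 456 counts in replicate 1 and 195 in replicate 2, or 127 CPM (116 to 140) and 54.5 CPM (47.1 to 62.7). It ranked 185 among the 1973 genes in replicate 1 and 211 in replicate 2.

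Mir294, one of the members that carry the seed AAGUGCU, had 309 counts in replicate 1 and 54 in replicate 2. These are 86.3 CPM (76.9 to 96.4) and 15.1 CPM (11.3 to 19.7). Mir292a, which shares its 5′ seed with Mir293, had 218 and 60 counts in replicates 1 and 2, or 60.9 CPM (53.1 to 69.5) and 16.8 CPM (12.8 to 21.6). Both genes were higher in replicate 1 than in replicate 2, with intervals that did not overlap.

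The other 4 members had lower counts, which in replicate 2 lay near or below the detection limit of 10. Together they made up 33.8 CPM (28.0 to 40.4) in replicate 1 and 12.3 CPM (8.94 to 16.5) in replicate 2. Mir291a, the next carrier of the seed AAGUGCU, had 59 counts in replicate 1 and 13 in replicate 2, or 16.5 CPM (12.5 to 21.2) and 3.63 CPM (1.94 to 6.22). Mir295, the last hairpin of the cluster with the same seed, had 31 and 14 counts in replicates 1 and 2, or 8.66 CPM (5.88 to 12.3) and 3.91 CPM (2.14 to 6.57). In Mir291a the intervals stood apart, with replicate 1 higher, and in Mir295 they overlapped. For Mir291b, with the 3′ seed AAGUGCA, the counts were 27 in replicate 1 and 17 in replicate 2, or 7.54 CPM (4.97 to 11.0) and 4.75 CPM (2.77 to 7.61), which overlap. Mir290a, the first hairpin, had 4 counts in replicate 1, or 1.12 CPM (0.304 to 2.86). In replicate 2 it had 0 counts, where the limit taken is 0.839 CPM and the exact interval reaches 1.03 CPM. It was the member that did not reach 10 counts.

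**Figure D1:**
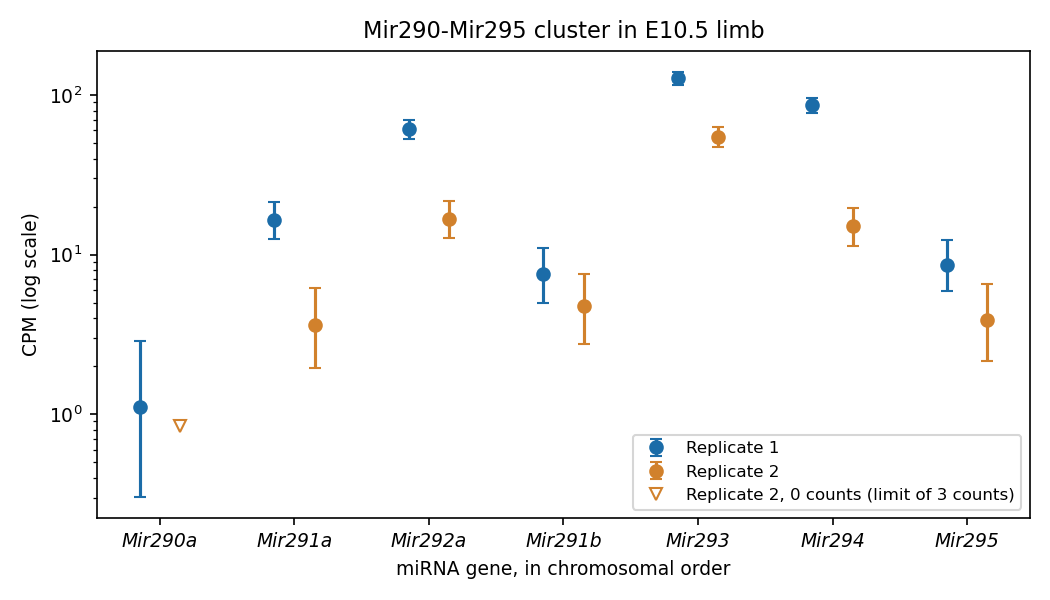
Sense CPM of each member on a log scale, in chromosomal order, in replicate 1 (blue) and replicate 2 (orange). Points are single libraries and bars are exact 95% binomial intervals, and the open triangle marks the limit that 3 counts set where Mir290a had 0 counts. Mir293 is highest in both libraries, at 127 and 54.5 CPM, and the points of the 6 detected members lie higher in replicate 1, with overlapping bars for Mir291b and Mir295.

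The order of the levels was settled only in part. Mir293 lay above Mir294 in both libraries, 1.48-fold in replicate 1 and 3.61-fold in replicate 2, with separate intervals. Mir294 lay above Mir292a in replicate 1 (log2 ratio 0.50, 0.25 to 0.76) and slightly below it in replicate 2 (log2 ratio -0.15, -0.71 to 0.40), so their order was not settled. Mir292a lay above Mir291a by 3.69-fold in replicate 1 and 4.62-fold in replicate 2. Mir291a, Mir295 and Mir291b were not separated from each other in both libraries: Mir291a was 2.19-fold above Mir291b in replicate 1 and had 0.765 times its count in replicate 2. All 6 had higher counts than Mir290a in both libraries. The values are reads per hairpin. How evenly the libraries captured different miRNAs was not measured, so this order is one of reads. Divided by the annotated hairpin length, 69 to 84 bases, Mir293 had 159 CPM per 100 bases in replicate 1 and 68.2 in replicate 2. Mir294 had 103 and 18.0, and Mir292a had 74.2 and 20.5. The libraries were limited to RNAs under 30 bases, shorter than any of the hairpins. The division is therefore a description and not a correction for length.

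Within the cluster, 3 genes held most of the reads. Mir293, Mir294 and Mir292a together had 89.0% (87.0 to 90.8) of the cluster's counts in replicate 1 and 87.5% (83.6 to 90.8) in replicate 2. The intervals of this joint share overlap, and those of the split among the 3 genes do not in 2 cases. Mir293 held 41.3% (38.4 to 44.3) in replicate 1 and 55.2% (49.9 to 60.5) in replicate 2. Mir294 held 28.0% (25.4 to 30.7) in replicate 1 and 15.3% (11.7 to 19.5) in replicate 2. For both genes the intervals stood apart, whereas Mir292a held 19.7% (17.4 to 22.2) and 17.0% (13.2 to 21.3), whose intervals overlap. Levels showed no steady rise or fall along the cluster. The abundant hairpins stand next to ones with fewer counts. Mir292a lies between Mir291a and Mir291b, whose counts leave out any read that fits both. Mir294, next to Mir295, was 9.97-fold above it in replicate 1 and 3.86-fold in replicate 2.

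**Figure D2:**
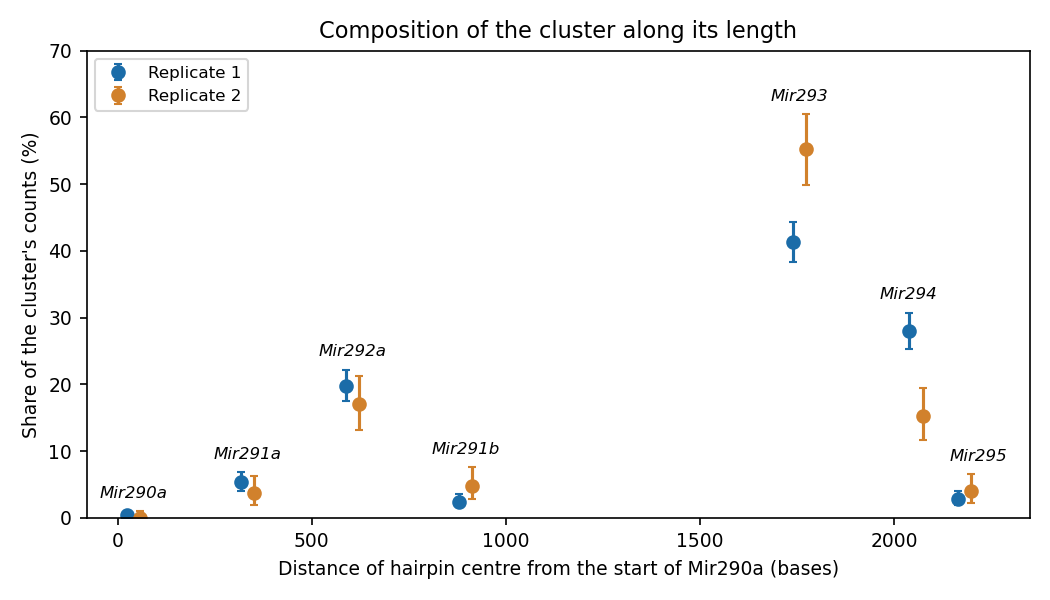
Share of the cluster's sense counts held by each member, against the distance of its hairpin's centre from the start of Mir290a, in replicate 1 (blue) and replicate 2 (orange, drawn slightly to the right). Bars are exact 95% binomial intervals. Mir293 has the highest share in both libraries, 41.3% and 55.2%, and Mir294 holds 28.0% in replicate 1 and 15.3% in replicate 2.

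Grouped by the seed of the 3′ arm, the AAGUGCU hairpins Mir291a, Mir294 and Mir295 summed to 399 counts in replicate 1 and 81 in replicate 2, or 111 CPM (101 to 123) and 22.6 CPM (18.0 to 28.1). The tables count hairpins and do not separate the arms, so these sums are not levels of the 3′ arm itself. Mir302b and Mir302d, whose 3′ arms carry that seed too, had 11893 and 4068 counts in replicates 1 and 2. Mir302a, with 8191 counts in replicate 1 and 3247 in replicate 2, was placed in no seed group here, so these counts are not a total for the seed. The hairpins with the 5′ seed CUCAAAC, namely Mir290a, Mir292a and Mir293, summed to 189 CPM (175 to 204) in replicate 1 and 71.3 CPM (62.8 to 80.6) in replicate 2. No gene in the tables outside the cluster was found with that seed in RefSeq. Mir350 on chromosome 1 shares the seed AAGUGCA of miR-291b-3p on its 5′ arm, and its hairpin had 325 CPM in replicate 1 and 455 CPM in replicate 2, above Mir291b in both. The Mir17 family carries the offset seed AAAGUGC, which overlaps AAGUGCU and is tied to proliferation in many tissues. Its 6 listed hairpins (Mir17, Mir20a, Mir20b, Mir93, Mir106a and Mir106b) summed to 146545 CPM in replicate 1 and to 156849 CPM in replicate 2.

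The Mir302 cluster, the other miRNA cluster of pluripotent cells and the one that lasts longer after implantation, had far more reads than the Mir290-Mir295 cluster. Its 5 members summed to 5903 CPM in replicate 1 and to 2152 CPM in replicate 2. The Mir290-Mir295 total was 19.2-fold below it in replicate 1 and 21.8-fold below it in replicate 2, with log2 ratios of -4.26 (-4.35 to -4.17) and -4.44 (-4.60 to -4.29). The mean log2 ratio was -4.35 ± 0.13 (SD, n = 2), and it does not depend on how the libraries are scaled. It was -5.31 without Mir293 and -3.60 without Mir302a, the most abundant gene of each cluster. The most abundant Mir290-Mir295 member, Mir293, lay below the scarcest detected Mir302 member, Mir302c, which had 296 CPM in replicate 1 and 106 CPM in replicate 2. Mir367, the last hairpin of the Mir302 cluster, had 1 count in replicate 1 and 5 in replicate 2 and so, like Mir290a, was not detected.

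The libraries differed in the cluster by more than counting error. The cluster total was 3.12-fold higher in replicate 1 than in replicate 2, with a log2 ratio of 1.64 (1.47 to 1.82). The median log2 ratio of replicate 1 over replicate 2 over the 348 detected genes was 0.27, and the cluster lay 1.37 above that median. Of the 348 detected genes, 15 (4.31%) had a ratio as high as the cluster total, a number that includes members. Among the 6 detected members, 5 were over 2-fold higher in replicate 1, against 11.5% of detected genes and 21.1% of the 128 detected genes within the members' range of mean CPM. Both of these shares include the members themselves. None of the 6 was over 2-fold lower in replicate 1, against 1.72% of detected genes. In embryonic stem cells the members share a primary transcript, so they are not taken as independent of each other here. The median log2 ratio of the 6 was 1.53.

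The size of the difference varied among members. Mir294 had the highest ratio, 5.71-fold with a log2 ratio of 2.49 (2.09 to 2.96). Mir291a followed at 2.10 (1.30 to 3.17) and Mir292a at 1.84 (1.44 to 2.30). Mir293, at 1.22 (0.98 to 1.47), lay below Mir294 and their intervals did not overlap. For Mir295 the log2 ratio was 1.09 (0.19 to 2.17), and for Mir291b it was 0.64 with an interval that includes 0 (-0.26 to 1.63). Mir290a, with 4 counts in replicate 1 and 0 in replicate 2, had an interval that reaches down to -0.60 and so includes 0. Scaling by TMM or DESeq2 size factors lowers every log2 ratio by 0.28 (TMM), which brings the median of the detected genes to -0.01 (TMM). It leaves 3 members over 2-fold, Mir294, Mir291a and Mir292a, against 6.61% of detected genes, members included. Scaling by all reads of a library also leaves 3.

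**Figure D3:**
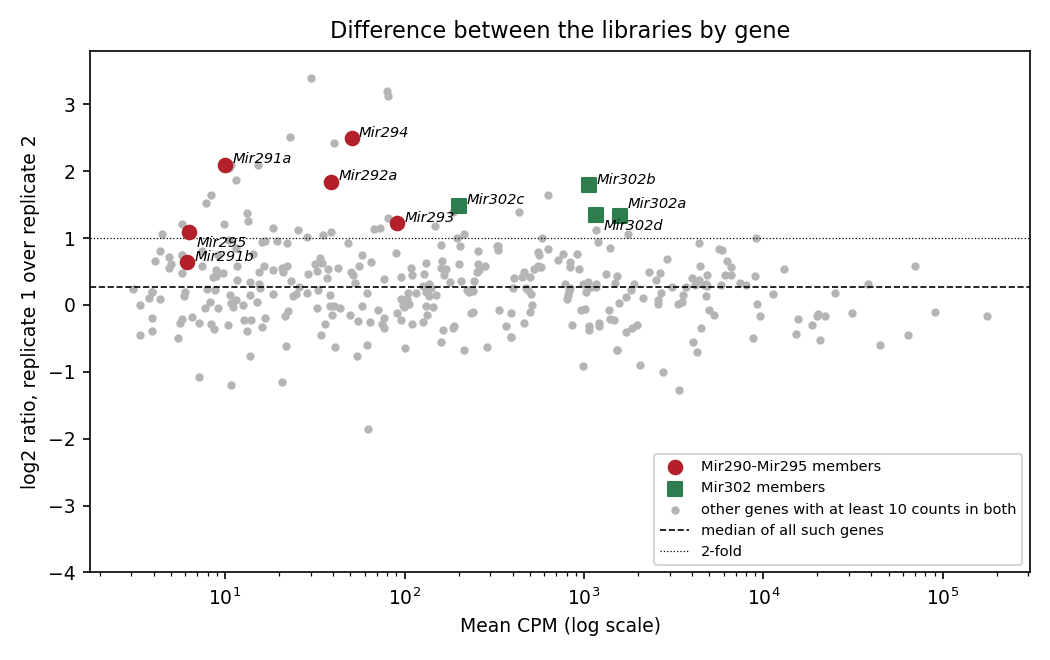
Log2 ratio of replicate 1 over replicate 2 (prior count of 1) against mean CPM on a log scale, for the 348 detected genes (at least 10 counts in each library). Red points are Mir290-Mir295 members, green squares Mir302 members and grey points other genes, with the median of all genes (0.27) as a dashed line and the 2-fold line dotted. All 6 detected members lie above the median, from 0.64 for Mir291b to 2.49 for Mir294.

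The Mir302 cluster differed between the libraries in the same direction. Its total was 2.74-fold higher in replicate 1, with a log2 ratio of 1.46 (1.42 to 1.49), and all 4 detected members were over 2-fold higher, with a median log2 ratio of 1.41. The 4 let-7 genes listed, Mirlet7d, Mirlet7g, Mirlet7i and Mir98, whose family accumulates as embryonic cells differentiate, went the other way. They summed to 5626 CPM in replicate 1 and to 9640 CPM in replicate 2, and all 4 were lower in replicate 1. Totals for genes of other cell types lay higher or lower in replicate 1. Those of the leukocyte, epithelial and endothelial genes had log2 ratios of 0.26, 0.19 and 0.17. These are close to the median of 0.27 over the detected genes. Totals of the erythroid genes and of the genes inside Sfmbt2 had log2 ratios of 0.84 and 0.43. For the neural and skeletal muscle totals the log2 ratios were -0.31 and -1.90. The erythroid genes Mir451a, Mir144 and Mir486, 3 of 3 detected, summed to 480 CPM in replicate 1 and to 269 CPM in replicate 2, and the leukocyte genes Mir223, Mir155 and Mir150, 2 of 3 detected, to 731 and 611 CPM. The skeletal muscle genes Mir206 and Mir133b, 1 of 2 detected, had 27.9 CPM in replicate 1 and 105 CPM in replicate 2, and the neural genes Mir137, Mir219a-1, Mir9-2 and Mir9-3, 2 of 4 detected, had 147 and 182 CPM. The 2 detected neural genes differed in direction, with log2 ratios of replicate 1 over replicate 2 of -0.64 for Mir137 and 0.18 for Mir219a-1. The 7 epithelial genes (the Mir200 family, Mir205 and Mir203), all detected, summed to 12334 CPM in replicate 1 and to 10775 CPM in replicate 2. Of these, 6 were higher in replicate 1, whereas Mir203 was lower there, with a log2 ratio of -0.67. Endothelial Mir126a had 26707 and 23683 CPM. The miRNA genes inside Sfmbt2, a cluster best known from placenta, summed to 3689 CPM in replicate 1 and to 2746 CPM in replicate 2, with 9 of 107 detected and 77 without a count in either library. Many of them are copies whose shared reads were counted at none. Of all reads, 32.3% were unmapped in replicate 1 and 18.6% in replicate 2. Whether any of these differences has a part in the cluster's was not tested.

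In the column read as antisense, no count was found at any of the 7 hairpins in either library, although the genes in the tables as a whole had antisense shares of 2.30% in replicate 1 and 1.70% in replicate 2. For each hairpin and library this limits the counts on the Nlrp12 strand to at most 3.

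The genes nearest to the cluster total in level were found by the Euclidean distance of log2(CPM + 1) over the 2 libraries. Mir302c of the Mir302 cluster was the closest, at a distance of 0.11, and its values are given above. Mir493 on chromosome 12 followed at 0.20, with 270 and 103 CPM. Next came Mir410 on chromosome 12 at 0.47, and then Mir505 at 0.50 and Mir18b at 0.58, both on chromosome X. With 2 libraries this likeness is one of level and library ratio alone.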

How the data were processed

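The authors deposited raw read counts per miRNA gene in a table for each library. The readme texts say that reads were aligned to mm10 and counted over GENCODE M4, without pooling replicates. Aligner, counting program and trimming: not given in the sources used here. The strand setting is not stated, and the columns were read from their values as counts of both strands, sense and antisense. The 4 rows of reads in no gene (unmapped, multimapping, outside genes, ambiguous) were left out of all totals. Multimapping reads were 21.9% of 10064833 reads in replicate 1 and 25.4% of 7218612 in replicate 2 and were counted at no gene.

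CPM, exact binomial intervals, log2 ratios of replicate 1 over replicate 2 (prior count 1) and exact conditional intervals were computed from sense counts. The log2 ratios and their intervals were tested on simulated data. Apart from set changes, the simulated counts varied by counting error alone, so this checks the calculation and not the spread between libraries. Of 1973 identifiers, 1894 matched GENCODE M21, which has the same build. No model of groups was fitted. edgeR gave TMM factors and DESeq2 size factors as alternatives, beside other filters, priors and denominators. The genes named are the members, genes within 10 kb, the Mir302 cluster, genes sharing a seed, the 5 nearest in level and the fixed lists. The rule for the members uses no measured value, but the cluster was picked for description, and the lists were drawn up, with earlier results of these data known. Each SD is the spread of these 2 pools. Tools were Python 3.11.15, numpy 2.4.6, pandas 2.3.3, scipy 1.17.1, matplotlib 3.10.9, R 4.3.3, edgeR 4.0.16 and DESeq2 1.42.0.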

Additional observations from a re-analysis of the deposited data

How the results depend on the processing

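The direction of every cluster ratio held under each alternative run. At 20 counts in both libraries 3 of 7 members were detected in place of 6, namely Mir293, Mir294 and Mir292a. The log2 ratio of the cluster total between the libraries was 1.36 with TMM library sizes, 1.36 with DESeq2 size factors, 1.16 per total reads and 2.03 without Mir293, in place of 1.64. The number of members over 2-fold higher in replicate 1 was 3 under each of TMM, DESeq2 and total reads, in place of 5, and the ones that left the count were Mir293 and Mir295. The log2 ratio to the Mir302 cluster was -5.31 without Mir293 and -3.60 without Mir302a, in place of -4.35. Leaving out a replicate gave cluster totals of 98.7 to 308 CPM, ratios to the Mir302 cluster of -4.44 to -4.26, and 6 detected members each time. With 1 replicate left out, the cluster total moves by over 1.5 times, so its level is known from these libraries only as this range. No paired analysis was possible because there is 1 group. Depth limits Mir290a, Mir291a, Mir291b and Mir295, whose counts lie between 0 and 59.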
